A study of Mus musculus with 6 samples.

Results

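Type X collagen and 9 regulators of chondrocyte hypertrophy were followed by RNA-seq in mouse knee cartilage cells at an embryonic and an adult stage. The 10 genes, *Col10a1*, *Runx1*, *Runx2*, *Runx3*, *Mef2c*, *Sp7*, *Dlx5*, *Dlx6*, *Panx3* and *Hdac4*, were taken by name from the 22032 genes of the deposited table, and all 10 were present. They were chosen for their roles, with earlier results of these data known. All 10 had a mean of at least 1 TPM (a level corrected for gene length and scaled to the same total in every library) and were tested, as were 13125 genes in all.

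The embryonic group held 3 samples of knee cartilage cells that were negative for lineage markers and for alkaline phosphatase (ALP) and positive for BMPR1B. The stage is written as 16.5 wks in the labels and as day E16.5 of gestation in the methods of the study. The adult group held 3 samples from male B6 mice of 2 months, sorted as CD31-CD45-Ter119-ALP-BMPR1B+ cells. No transgene or treatment is named for either group. The methods name a strain and a sex for the adult mice only. The sex of the embryos and the number of animals behind each sample are not given in the sources used here. P-values therefore measure the spread between samples described as biological replicates. ALP is a surface enzyme of hypertrophic chondrocytes and osteoblasts, so the gate leaves out cells of both kinds that carry it, and its part in the results was not tested.

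Hypertrophy is the last step of growth plate cartilage, in which chondrocytes stop dividing, enlarge and secrete a matrix of type X collagen before bone replaces it. RUNX2, with RUNX3, and MEF2C switch on this programme, and HDAC4 holds it back by binding these factors. DLX5 and DLX6 act beside RUNX2 in cartilage and bone, SP7 acts downstream of it in osteoblasts and hypertrophic chondrocytes, and type X collagen is absent from most of a healthy joint surface but is made in the growth plate and in the calcified layer.

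The sequences shown are the start of *Col10a1*, whose product defines the hypertrophic zone, and a stretch shared by a start of each of the 3 *RUNX* genes. Their part in this programme was not tested. RefSeq windows on GRCm38, each from 250 bases before a transcription start to 50 bases after it, were at hand for 6 of the 10 genes. The 4 without a window were *Sp7*, *Dlx5*, *Dlx6* and *Panx3*. The 250 bases before the *Col10a1* start lie at chr10:34389731-34389980 on the plus strand, upstream of the gene at 34389981 to 34397085, and capitals mark a homeodomain core (TAATTA, at -106 to -101) and a TATA box (TATAAA, at -32 to -27).
Col10a1 upstream: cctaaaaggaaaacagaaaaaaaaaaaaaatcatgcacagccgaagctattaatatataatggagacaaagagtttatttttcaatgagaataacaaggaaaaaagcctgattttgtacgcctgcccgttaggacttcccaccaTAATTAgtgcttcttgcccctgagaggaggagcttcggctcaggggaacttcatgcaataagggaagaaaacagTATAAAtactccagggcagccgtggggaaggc

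Both strands of all 32851 windows were searched for 4 short motifs. The TATA box was found in 13.6% of windows, the homeodomain core in 5.29%, the RUNX core TGTGGT in 16.8% and the MEF2 core, CTA and TAG with 4 bases between them, in 3.69%. The *Col10a1* window held neither the RUNX core nor the MEF2 core in these letters, which says nothing of binding elsewhere or to other spellings.

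*Runx1*, *Runx2* and *Runx3* each had 1 start with a pair of RUNX cores, read as ACCACA on the strand of the gene and spaced 8 bases apart. *Runx1* and *Runx3* each had a second window, and neither of these held a RUNX core. The pair is shown because it is shared by the 3 paralogs whose levels are compared below, and capitals mark the cores. The search for the pair was added after these windows had been read. It was found in 4 of the 32851 windows, or 0.0122%, which belonged to the 3 *RUNX* genes and to Gm16225, a non-coding gene beside the *Runx3* start. Counted from the start, the stretches run from 23 to 48 in *Runx1* (chr16:92826027-92826052, minus strand), from 18 to 43 in *Runx2* (chr17:44814585-44814610, minus strand) and from -140 to -115 in *Runx3* (chr4:135120505-135120530, plus strand).
Runx1: taaacaACCACAgaACCACAagttgg
Runx2: caaacaACCACAgaACCACAagtgcg
Runx3: ccctcaACCACAgaACCACAaggcca

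Since TPM does not carry depth, the precision of each value rests on 3 samples a stage. Across the genes tested, log2(TPM + 1) values correlated at 0.951 to 0.955 between embryonic samples, at 0.907 to 0.935 between adult samples and at 0.739 to 0.765 between stages. Between 7314 and 8294 genes a sample were listed at 0. All 7 chondrocyte markers were above 0 in every sample, and their summed level was 20926 to 22543 TPM in the embryonic samples and 7080 to 9785 TPM in the adult samples. *Col2a1* was the largest part of that sum in each sample, and the 7 did not move together: 5 fell, *Sox9* rose from a mean of 436 to 715 TPM, and *Acan*, at means of 1191 and 1898 TPM, did not pass. The test is described below, and it called 45.3% of all genes tested. *Matn3*, a cartilage matrix protein and the lowest of the 7, was at 181 to 234 TPM at the embryonic stage, against 1.11 to 3.65 TPM at the adult stage. In bulk samples, fewer cells of a type and less RNA per cell cannot be told apart.

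The first question was how the 10 genes differed between the stages. Of the 10, 4 rose from the embryonic to the adult samples, namely *Col10a1*, *Dlx5*, *Dlx6* and *Runx1*, and 1 fell, *Panx3*. *Runx2*, *Runx3*, *Mef2c*, *Sp7* and *Hdac4* did not pass the test. The test was limma on log2(TPM + 1) with a Benjamini-Hochberg adjusted p under 0.05, and it called 45.3% of all genes tested, 23.9% as higher and 21.4% as lower in the adult samples. A count of 5 of 10 is near that background. The median difference of the 10 was -0.067 on the log2(TPM + 1) scale, beside 0.16 for all genes tested, and every difference below is to be read against that shift of 0.16.

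**Figure D1:**
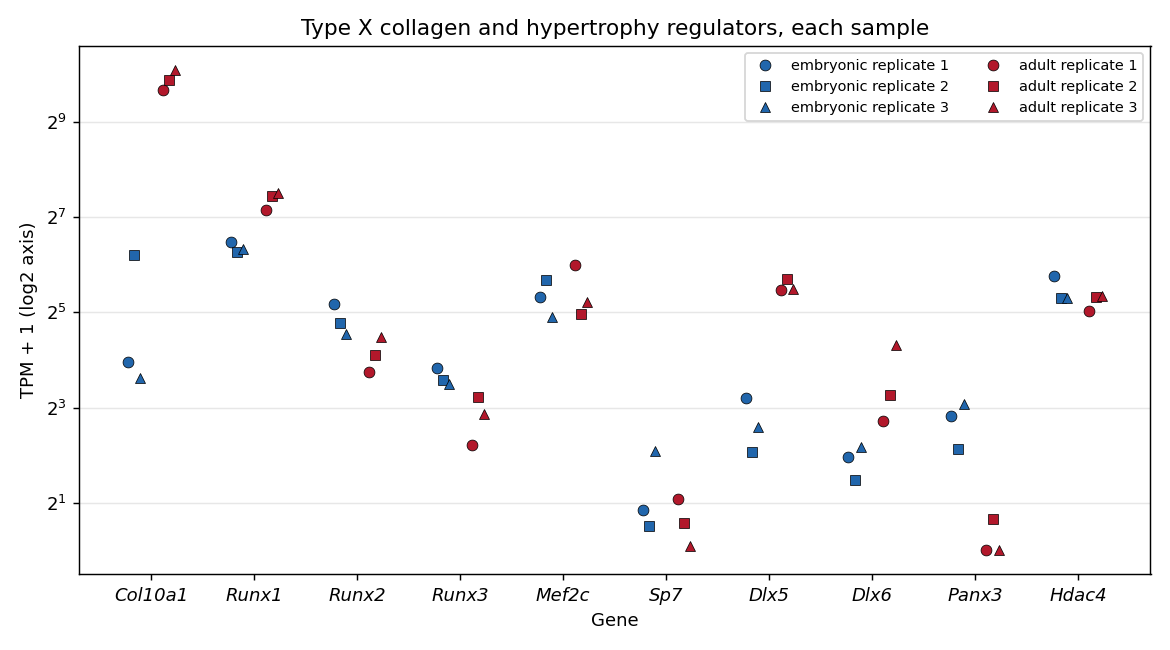
Level of each of the 10 genes in each sample, as TPM + 1 on a log2 axis, with blue symbols for the 3 embryonic and red symbols for the 3 adult samples. *Col10a1* lay at 814 to 1096 TPM in the adult group and at 11.4 to 72.4 TPM in the embryonic group, where replicate 2 stood above the other pair.

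*Col10a1* encodes type X collagen, the matrix protein of hypertrophic cartilage. It was at 14.5, 72.4 and 11.4 TPM in embryonic replicates 1, 2 and 3, against 814, 949 and 1096 TPM in adult replicates 1, 2 and 3. The groups did not overlap, and the adult samples lay close together while embryonic replicate 2 was well above the other embryonic samples. The mean was 32.8 ± 34.4 TPM (SD, n = 3) in the embryonic and 953 ± 141 TPM (SD, n = 3) in the adult samples, a ratio of 29.1. The difference was 5.29 on the log2(TPM + 1) scale (SE 0.563, 95% interval 4.02 to 6.57, limma adjusted p = 0.000137), the 37th highest rise of the 13125 genes. Without embryonic replicate 2 it was 6.09. By mean TPM *Col10a1* was the 4980th of 22032 genes in the embryonic samples and the 111th in the adult samples.

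Embryonic replicate 2 held 5.59 times the mean *Col10a1* level of the other embryonic samples. Over all genes tested, it was at least 2 times each of the other embryonic samples in 3.37% and the highest of the 3 in 27.4%. Among the 10 genes it was at least 2 times the others only for *Col10a1*, was the highest also for *Mef2c*, and was the lowest of the 3 for *Runx1*, *Sp7*, *Dlx5*, *Dlx6* and *Panx3*. *Ibsp*, a mineral-binding matrix protein made by hypertrophic chondrocytes and osteoblasts, was at 29.6 TPM there, beside 0.148 and 5.07 TPM in replicates 1 and 3. The other genes of the hypertrophic zone, listed below, did not share this. Of the 11 tested, replicate 2 was highest for 3 (*Ibsp*, *Spp1* and *Foxa2*) and lowest for 4 (*Alpl*, *Vegfa*, *Smpd3* and *Phospho1*). It was at least 2 times the other embryonic samples only for *Ibsp*. Of the 7 osteoblast and osteocyte markers, *Bglap*, *Bglap2*, *Sost* and *Mepe* were at 0 in all 3 embryonic samples. *Dmp1*, an osteocyte matrix protein, was highest in replicate 2, at 16.3 TPM beside 10.6 and 10.1 TPM, whereas *Col1a1*, at 4862 TPM, was lowest there and made up nearly all of the summed 4883 TPM. What set the *Col10a1* level of this sample was not tested.

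*Nt5dc1*, a gene on the opposite strand (chr10:34288288-34418552), spans the whole of *Col10a1* and shares 18 of the 3130 exon bases of *Col10a1*. It was at 3.18, 0.850 and 0.0769 TPM at the embryonic stage, against 37.1, 13.6 and 11.0 TPM at the adult stage, so the groups did not overlap. It rose by 3.21 on the log2(TPM + 1) scale (limma adjusted p = 0.00334). Its order over the embryonic samples was not that of *Col10a1*, which was highest where *Nt5dc1* was intermediate. Whether the counting used strand is not given in the sources used here, so reads from such overlaps cannot be assigned.

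The RUNX genes encode DNA-binding factors that pair with CBFB. *Runx1*, best known from blood formation and also active in cartilage progenitors, was at 88.2, 76.1 and 79.8 TPM in embryonic replicates 1 to 3 and at 141, 174 and 181 TPM in adult replicates 1 to 3. All adult samples were above all embryonic samples. It rose by 1.01 (SE 0.147, 95% interval 0.67 to 1.34, limma adjusted p = 0.000778), a ratio of mean TPM of 2.03.

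*Runx2*, the factor that drives hypertrophy and bone formation, was at 35.0, 26.3 and 22.4 TPM at the embryonic stage, against 12.4, 16.3 and 21.3 TPM at the adult stage. The groups did not overlap, but the lowest embryonic and the highest adult sample nearly met. The difference of -0.72 (95% interval -1.36 to -0.078) did not pass over all genes (limma adjusted p = 0.0659, with 0.0289 to 0.222 over the alternatives). It passed in 3 of 15 alternatives, at -0.88 with quantile normalization (adjusted p = 0.0289), at -0.86 with median of ratios scaling (adjusted p = 0.0328) and at -0.90 without adult replicate 3 (adjusted p = 0.039). *Supt3*, on the opposite strand, overlaps *Runx2* with 0 shared exon bases and differed by -0.77 (limma adjusted p = 0.13). The antisense genes Runx2os1 and Gm26626 share 519 exon bases with *Runx2* and 106 with *Runx1*. Neither was listed in the deposited table, so the limit on strand given for *Col10a1* holds here too.

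*Runx3*, which acts with *Runx2* in chondrocyte maturation, was at 13.3, 10.9 and 10.2 TPM at the embryonic stage, against 3.62, 8.30 and 6.30 TPM at the adult stage. Here too every adult sample was below every embryonic sample. The difference of -0.87 (95% interval -1.71 to -0.030) did not pass (limma adjusted p = 0.0847, with 0.0434 to 0.222 over the alternatives), and of the 15 alternatives only quantile normalization, at -1.06, brought it past the threshold. No overlap between stages was seen for 7 of the 10 genes, beside 56.5% of all genes tested.

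The 3 *RUNX* genes summed to 121 ± 13.6 TPM in the embryonic and 188 ± 27.4 TPM in the adult samples (SD, n = 3 each). Because TPM is a level per length, the share of each paralog in that sum can be compared. *Runx1* held 64.6%, 67.2% and 71.0% of it in embryonic replicates 1 to 3 and 89.8%, 87.6% and 86.8% in adult replicates 1 to 3. *Runx1* was thus the leading paralog in every sample, and its share was higher in all adult samples (exact two-sided permutation test, p = 0.1, the smallest that 3 against 3 samples allow). The share of *Runx2* was 22.9 ± 2.86% and then 8.79 ± 1.24%, and that of *Runx3* was 9.51 ± 0.360% and then 3.17 ± 0.946% (SD, n = 3 each). The level of *Runx1* was 2.52, 2.90 and 3.56 times that of *Runx2* in the embryonic samples. In the adult samples the ratio was 11.3, 10.6 and 8.50, with no overlap.

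**Figure D2:**
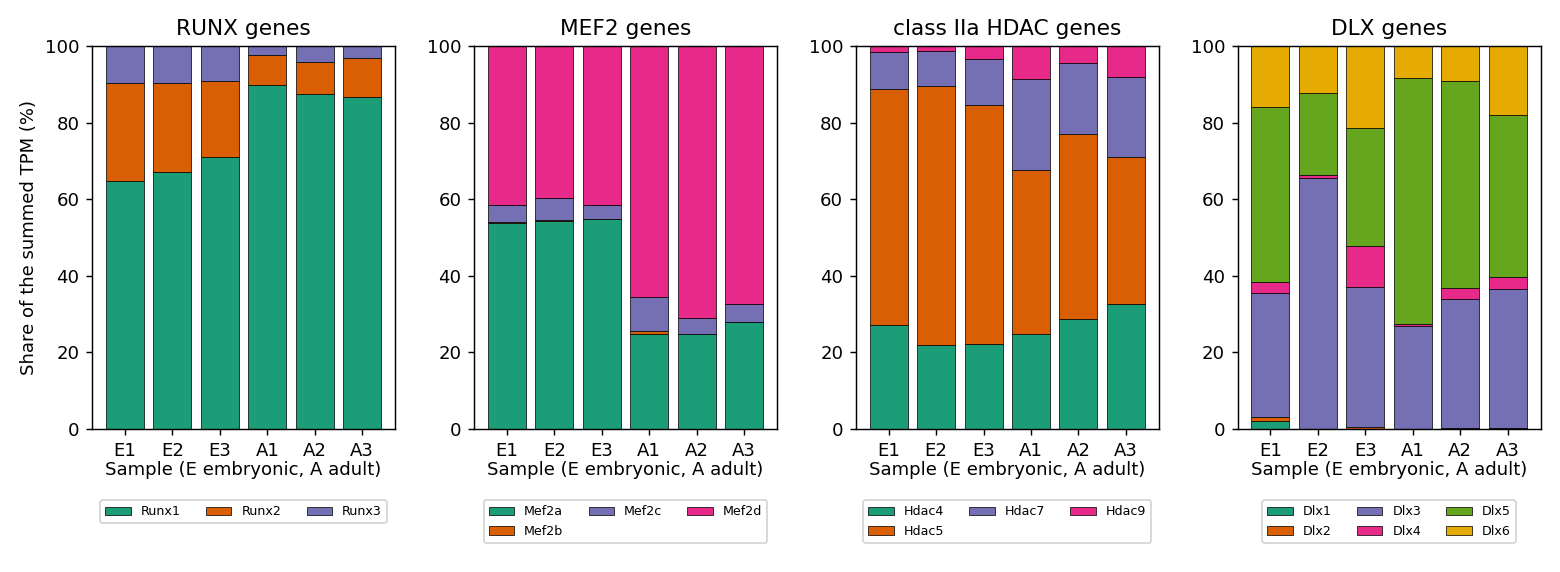
Share in percent of the summed TPM held by each gene of the RUNX, MEF2, class IIa HDAC and DLX families, 1 stacked bar for each embryonic (E1 to E3) and adult (A1 to A3) sample. *Runx1* takes 64.6% to 71.0% of the RUNX sum in the embryonic and 86.8% to 89.8% in the adult samples, and the leading MEF2 gene is *Mef2a* in the embryonic and *Mef2d* in the adult samples.

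Of the 4 *RUNX* partners and co-repressors, 3 fell and none rose, beside 21.4% and 23.9% of all genes tested. *Cbfb*, the shared partner, fell by 0.51 (limma adjusted p = 0.0171), a call lost without embryonic replicate 1 (-0.49, adjusted p = 0.061), without embryonic replicate 2 (-0.47, adjusted p = 0.0608) and without the variance trend (adjusted p = 0.0668). The co-repressor *Runx1t1* was at 38.4, 32.4 and 39.5 TPM in the embryonic group and at 3.39, 3.87 and 7.47 TPM in the adult group and fell by 2.73 (limma adjusted p = 0.000259). Its relative *Cbfa2t3* fell by 2.15 (limma adjusted p = 0.011), a call lost without embryonic replicate 3 (-1.71, adjusted p = 0.0531). *Cbfa2t2*, the third of these co-repressors, differed by 0.36 and did not pass.

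MEF2C is a transcription factor that growth plate chondrocytes need for hypertrophy and that acts on *Col10a1*. *Mef2c* was at 38.8, 50.1 and 29.1 TPM at the embryonic stage, against 63.2, 30.3 and 36.1 TPM at the adult stage. The ranges overlapped, and adult replicate 1 was the highest of the 6. The difference was 0.095 (95% interval -0.60 to 0.79, limma adjusted p = 0.817), so a change within that interval was not resolved. The sign turned with median of ratios scaling (-0.048), without embryonic replicate 3 (-0.10) and without adult replicate 1 (-0.21). Adult replicate 1 also had the highest summed leukocyte markers, at 72.5 TPM beside 5.67 to 39.7 TPM in the other samples. Most of that sum was *Cd68* (33.3 TPM) and *Lyz2* (30.7 TPM). Of the 6 markers, *Ptprc* and *Cd79a* were also highest there and *Cd3e* was at 0 throughout. *Csf1r*, at 0.304 TPM there, was highest in embryonic replicate 2, at 1.54 TPM. The adult sort took CD45- and Ter119- cells, a gate that removes blood cells. *Ptprc*, which encodes CD45, was at 2.29 TPM in adult replicate 1. The part of such cells in the *Mef2c* level was not tested.

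Within the MEF2 family, *Mef2c* was a minor member in both stages, at 4.60 ± 1.18% of the summed TPM in the embryonic and 5.92 ± 2.60% in the adult samples (SD, n = 3 each). *Mef2a* fell by 1.28, from a share of 54.3% to 25.8% (limma adjusted p = 6.07e-05 for the level). *Mef2d* rose by 0.52, from 40.9% to 68.0% (limma adjusted p = 0.00583 for the level). *Mef2b* was at 6.07 TPM in 1 adult sample and at 0 in the other adult samples, and did not pass.

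HDAC4 is a class IIa histone deacetylase that represses MEF2 and RUNX2 activity and is kept out of the nucleus when phosphorylated. *Hdac4* was at 53.2, 38.6 and 38.5 TPM at the embryonic stage, against 31.5, 38.9 and 39.8 TPM at the adult stage. Apart from a high embryonic and a low adult sample, both numbered replicate 1, the levels lay between 38.5 and 39.8 TPM. The difference was -0.23 (95% interval -0.69 to 0.24, limma adjusted p = 0.387), and it stayed below 0 over the 15 alternatives, from -0.37 to -0.077. Gm26720, a non-coding gene on the opposite strand, shares 3536 exon bases with *Hdac4* and was not listed in the deposited table. These values are for mRNA and say nothing of where the protein was in the cell.

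Among the other class IIa HDACs and the SIK kinases, which phosphorylate them, 1 of 6 rose, 2 fell and 3 did not pass. The share called over all genes tested was 45.3%. *Hdac5* was the leading gene of the class in every sample. It fell by 1.06 (limma adjusted p = 0.000997), and its share of the class went from 63.9 ± 3.12% to 43.1 ± 5.02% (SD, n = 3 each). *Hdac4* held 23.8 ± 2.96% and 28.7 ± 3.83%, with overlapping ranges (exact two-sided permutation test, p = 0.2). *Sik1* was at 51.8, 55.3 and 67.0 TPM in the embryonic group and at 13.2, 9.94 and 20.8 TPM in the adult group and fell by 1.97 (limma adjusted p = 0.000641). *Sik2* rose by 1.04 (limma adjusted p = 0.00358). *Hdac7*, *Hdac9* and *Sik3* differed by 0.53, 1.06 and -0.44 and did not pass, though *Sik3* passed without adult replicate 2 (-0.54, adjusted p = 0.0372) and with median of ratios scaling (adjusted p = 0.0168), and *Hdac7* without the 20 highest genes (adjusted p = 0.0471).

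DLX5 and DLX6 are homeodomain factors encoded side by side on chromosome 6, at 6877805 to 6882085 on the minus strand and at 6863334 to 6868568 on the plus strand, with 9236 bases between the genes. *Dlx5* was at 8.24, 3.17 and 4.99 TPM at the embryonic stage, against 43.1, 51.4 and 44.3 TPM at the adult stage. Every adult sample was far above every embryonic sample, and the adult samples lay close together. It rose by 2.94 (SE 0.330, 95% interval 2.19 to 3.69, limma adjusted p = 0.000181), a ratio of mean TPM of 8.47 and the 244th highest rise of all genes tested.

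*Dlx6* was at 2.87, 1.80 and 3.50 TPM at the embryonic stage, against 5.58, 8.58 and 19.0 TPM at the adult stage. The groups did not overlap, but the adult samples were spread widely and replicate 3 led them. The rise of 1.56 (95% interval 0.46 to 2.67, limma adjusted p = 0.0286) was lost without embryonic replicate 1 (adjusted p = 0.0703), 2 (0.0952) or 3 (0.0534) and without adult replicate 2 (0.0565) or 3 (1.12, adjusted p = 0.0746). It was also lost with no filter on low genes (adjusted p = 0.0564). The sign held in all of these.

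*Dlx5* was above *Dlx6* in all 6 samples, by 2.88, 1.76 and 1.43 times in the embryonic and by 7.72, 5.99 and 2.33 times in the adult samples. These ratios overlapped between stages (exact two-sided permutation test, p = 0.2). *Dlx6os1* and *Dlx6os2*, non-coding genes on the strand opposite *Dlx6*, were listed at 0 in all 6 samples.

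*Dlx3* rose with them, from 5.81, 9.68 and 5.94 TPM to 18.0, 31.9 and 38.1 TPM, by 1.87 (limma adjusted p = 0.00312). *Dlx4* did not pass, and *Dlx1* and *Dlx2* were at most 0.349 and 0.229 TPM in any sample and were not tested. The summed level of the 6 *DLX* genes was 14.8 to 18.0 TPM in the embryonic samples and 66.9 to 105 TPM in the adult samples. *Dlx5* held 32.6 ± 12.3% of it in the embryonic and 53.6 ± 11.1% in the adult samples (SD, n = 3 each), with overlapping ranges. In embryonic replicate 2, where *Dlx5* was lowest, *Dlx3* held 65.6% of the sum.

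SP7, or osterix, is a zinc finger factor needed for osteoblast formation and for late hypertrophy. *Sp7* was at 0.804, 0.428 and 3.26 TPM at the embryonic stage, against 1.10, 0.482 and 0.0642 TPM at the adult stage. The ranges overlapped and 4 of the 6 values, those from 0.0642 to 0.804 TPM, were under 1 TPM. The difference of -0.58 (95% interval -1.91 to 0.76, limma adjusted p = 0.45) was not resolved at these levels. Its mean was just over the filter of 1 TPM, and under a filter of 5 TPM it was not tested.

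PANX3 is a channel protein of prehypertrophic chondrocytes and osteoblasts. *Panx3* was at 6.07, 3.37 and 7.38 TPM at the embryonic stage, against 0, 0.569 and 0 TPM at the adult stage. All embryonic samples were above all adult samples, of which a pair was listed at 0. It was called lower in the adult samples (limma adjusted p = 0.0036) in the fit and in the 14 alternatives that tested it, and no fold change is given because of the values at 0. *Panx1*, the widely expressed pannexin, was at 27.4, 34.5 and 51.7 TPM in the embryonic group and at 0, 4.42 and 2.50 TPM in the adult group and was called lower as well (limma adjusted p = 0.00113). Without adult replicate 1, the sample at 0, it was still called lower (limma adjusted p = 0.00119). *Panx2* was at most 3.07 TPM and was not tested.

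**Figure D3:**
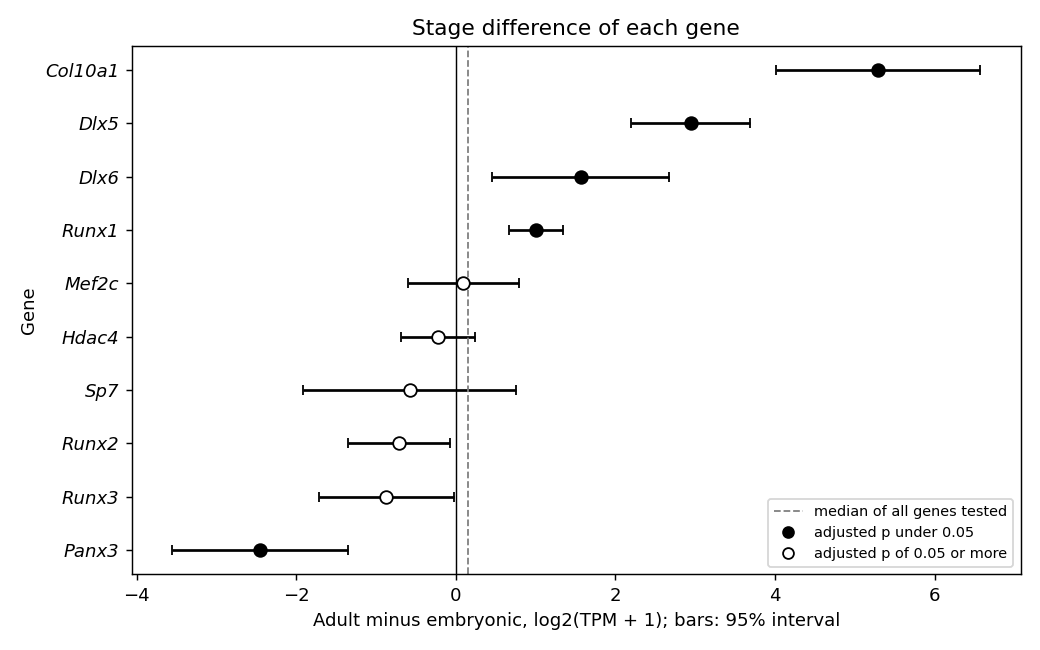
Difference between the adult and the embryonic samples for each of the 10 genes on the log2(TPM + 1) scale, with points at the limma estimate, bars for its 95% interval and a dashed line at the median of all genes tested (0.16). *Col10a1* (5.29), *Dlx5* (2.94), *Dlx6* (1.56) and *Runx1* (1.01) pass as higher and *Panx3* as lower, shown by filled points.

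The order of the 10 genes by mean TPM differed between the stages. In the embryonic samples it was *Runx1* (81.4 TPM), *Hdac4* (43.4), *Mef2c* (39.3), *Col10a1* (32.8), *Runx2* (27.9), *Runx3* (11.5), *Panx3* (5.61), *Dlx5* (5.47), *Dlx6* (2.72) and *Sp7* (1.50). The ranges of neighbours overlapped except between *Runx1* and *Hdac4*, *Runx2* and *Runx3*, and *Runx3* and *Panx3*. In the adult samples it was *Col10a1* (953 TPM), *Runx1* (165), *Dlx5* (46.3), *Mef2c* (43.2), *Hdac4* (36.7), *Runx2* (16.7), *Dlx6* (11.0), *Runx3* (6.07), *Sp7* (0.550) and *Panx3* (0.190). There the neighbours with separate ranges were *Col10a1* and *Runx1*, *Runx1* and *Dlx5*, *Hdac4* and *Runx2*, and *Runx3* and *Sp7*.

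The next question was what other genes of the hypertrophic zone did. Of the 12 listed, 11 were tested, 7 rose, 2 fell and 2 did not pass, with a median difference of 1.59. Beside these counts, 23.9% of all genes tested rose and 21.4% fell. *Ibsp* rose by 5.58, to 316, 235 and 308 TPM in the adult samples (limma adjusted p = 0.00164), by 4.39 without embryonic replicate 1 and by 6.75 without embryonic replicate 2. *Mmp13*, the collagenase of terminal hypertrophic cartilage, was at 4.90, 7.80 and 14.4 TPM in the embryonic group and at 143, 179 and 226 TPM in the adult group and rose by 4.28 (limma adjusted p = 2.87e-05). Both went from low levels to well over 100 TPM with no overlap, as *Col10a1* did.

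*Spp1* (osteopontin, a mineral-binding phosphoprotein) rose by 2.45, *Phospho1* (a phosphatase of matrix vesicles) by 2.17 and *Alpl* (which encodes ALP) by 1.13. *Alpl* itself was at 15.4, 14.4 and 17.9 TPM in the embryonic group and at 38.6, 32.7 and 36.0 TPM in the adult group (limma adjusted p = 0.00292), although both groups were sorted as ALP negative. The surface protein gene *Cd200* rose by 3.85 and the forkhead factor *Foxa3* by 1.59.

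*Vegfa*, the angiogenic factor of hypertrophic cartilage, went the other way, from 1154, 996 and 1013 TPM to 188, 260 and 302 TPM, and fell by 2.09 (limma adjusted p = 3.82e-05). *Pth1r*, the receptor of PTHrP in prehypertrophic cells, fell by 1.06 (limma adjusted p = 0.0182), a call lost without embryonic replicate 3 (-0.83, adjusted p = 0.0826). *Ihh*, the hedgehog ligand of prehypertrophic cells, was at 2.23, 0.597 and 1.13 TPM in embryonic replicates 1 to 3 and was listed at 0 in the 3 adult samples, and it was too low to be tested. *Foxa2* and *Smpd3* did not pass, though *Smpd3* did without adult replicate 1 (1.32, adjusted p = 0.045).

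Of the 7 factors that hold back hypertrophy, 2 rose and 5 fell, beside 23.9% and 21.4% of all genes tested. *Sox9*, the master factor of chondrocytes, rose by 0.69 (limma adjusted p = 0.01) and its partner *Sox5* by 0.62 (limma adjusted p = 0.00773), while their partner *Sox6* fell by 0.93 (limma adjusted p = 0.00687). *Twist1* and *Zfp521*, which restrain RUNX2, fell by 1.82 and 1.16 (limma adjusted p = 0.000722 and 0.00319). *Pthlh*, which encodes PTHrP, was at 22.6, 7.35 and 19.0 TPM in the embryonic group and at 0.747, 3.43 and 7.08 TPM in the adult group.

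*Pthlh* fell by 1.99 (limma adjusted p = 0.0291), a call lost without embryonic replicate 1 (-1.70, adjusted p = 0.114) or 3 (-1.82, 0.103), without adult replicate 1 (-1.40, 0.0814) or 2 (-2.07, 0.0589), with no filter (0.0613) and without the variance trend (0.0513). The homeobox gene *Nkx3-2* was at 5.98, 2.57 and 7.90 TPM and then at 0, 1.44 and 0.220 TPM. *Nkx3-2* fell by 2.07 (limma adjusted p = 0.0155), a call lost without embryonic replicate 1 (-1.97, adjusted p = 0.056) or 3 (-1.79, adjusted p = 0.0595). Over all 38 related genes, 34 were tested, 12 rose, 14 fell and 8 did not pass, with a median difference of 0.27. Called genes made up 76.5% of the 34, beside 45.3% of all genes tested. The lists were chosen with earlier results of these data known.

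**Figure D4:**
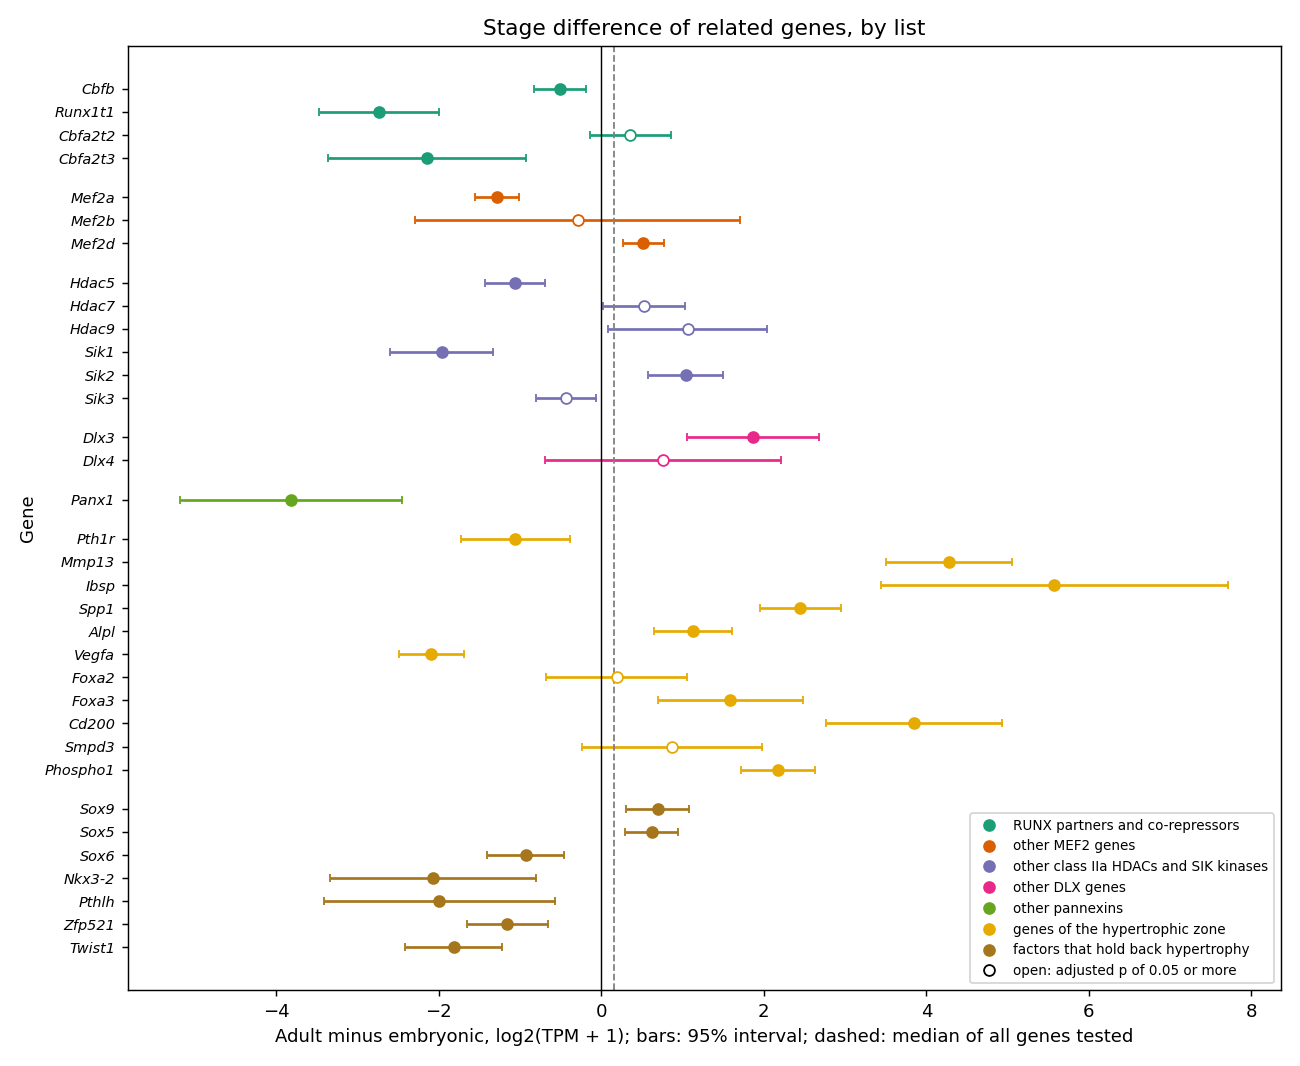
Difference between the adult and the embryonic samples for the 34 related genes tested, on the log2(TPM + 1) scale and coloured by list, with bars for the 95% interval, open points for an adjusted p of 0.05 or more and a dashed line at the median of all genes tested. In the hypertrophic zone list 7 genes pass as higher and 2 as lower, and among the factors that hold back hypertrophy 2 pass as higher and 5 as lower. Over all genes tested, 23.9% pass as higher and 21.4% as lower.

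Markers of other cells were also summed in each sample. The summed osteoblast and osteocyte markers were at 4883 to 5988 TPM in the embryonic and 216 to 786 TPM in the adult samples, most of it *Col1a1*, and *Sost* was at 0 in all 6 samples. *Bglap* (osteocalcin), at 0 in every embryonic sample, was at 26.8, 15.8 and 83.9 TPM in adult replicates 1 to 3, with an uncertain split of reads from its near-identical copy *Bglap2*. Of the markers tested, 2 of 6 of this list rose and 2 fell, 1 of 4 muscle and 1 of 3 endothelial markers fell, 1 of 3 leukocyte markers rose, and neither of the 2 erythroid markers passed. For comparison, 45.3% of all genes tested were called. The other list sums were 47.1 to 65.4 and 1.79 to 8.83 TPM for muscle, 10.9 to 33.3 and 3.79 to 13.0 TPM for endothelium, 5.67 to 13.7 and 19.0 to 72.5 TPM for leukocytes, and 0 to 104 and 1.41 to 33.8 TPM for erythroid cells, embryonic and adult in turn, with overlapping ranges for endothelium and erythroid cells. Most of each embryonic muscle sum was *Des*, at 49.3, 50.6 and 46.0 TPM in embryonic replicates 1 to 3. Most of each embryonic endothelial sum was *Tek*, at 9.21, 9.24 and 19.0 TPM. The part of these other cells in the levels of the 10 genes was not tested.

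The genes whose profile over the 6 samples was most like that of *Col10a1* were *Srgn*, *Plac9a* (which has a near-identical copy that could share its reads), *Gpx3*, *Ntn4* and Gm12505. Likeness was the root mean square difference between log2(TPM + 1) profiles, each centred on its own mean, and these 5 had the lowest values of all genes tested, 0.24, 0.55, 0.55, 0.62 and 0.67. *Srgn* (serglycin, a proteoglycan of secretory granules) was at 1.83, 13.6 and 2.01 TPM in the embryonic group and at 200, 272 and 306 TPM in the adult group. It shared both the gap between stages and the high embryonic replicate 2, which follows from its being picked by likeness over these samples. *Gpx3*, a secreted glutathione peroxidase, was at 7.94, 22.2 and 11.4 TPM and then at 675, 424 and 682 TPM. *Ibsp* ranked 24th, *Mmp13* 78th, *Cd200* 102nd, *Spp1* 317th and *Dlx5* 341st in likeness to *Col10a1*. These ranks describe 6 samples in 2 groups, in which any gene that rises between stages by a similar amount comes close.

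**Figure D5:**
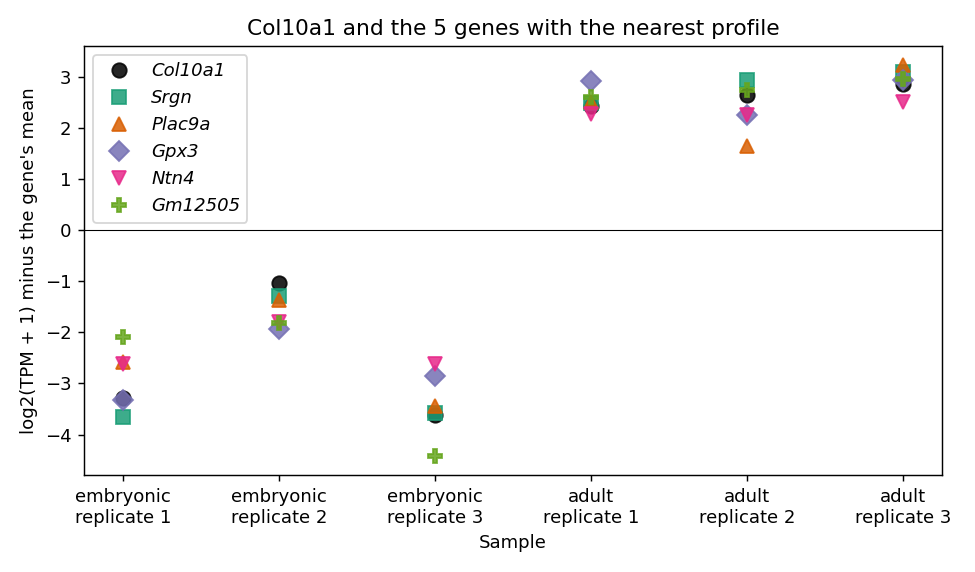
Profile over the 6 samples of *Col10a1* and of the 5 genes nearest to it, as log2(TPM + 1) minus the mean of each gene. All 6 genes lie below 0 in the embryonic and above 0 in the adult samples, and *Srgn*, at a root mean square difference of 0.24, follows *Col10a1* most closely.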

How the data were processed

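RNA-seq was measured in 6 mouse samples, 3 embryonic and 3 adult. The authors mapped reads to GRCm38, estimated levels with RSEM (version not given in the sources used here) on RefSeq annotations and deposited log2(TPM + 1) per gene, which was taken as it stands; all 6 columns were used. For the library kit, Kapa mRNA-Seq stands in the labels, and Nugen Ovation cDNA with Kapa LTP in the methods. TPM does not carry depth, so a value has no counting interval, and a 0 need not mean an absent transcript. Symbols and positions came from GENCODE M21 (21902 of 22032 identifiers matched). The deposited rows carry Ensembl identifiers, whereas the methods name RefSeq annotations. Exon overlaps given here may therefore differ from those in the annotation used for counting. Stages were compared with limma 3.58.1 in R 4.3.3 (lmFit, eBayes with trend, pseudocount 1, mean of at least 1 TPM), with Benjamini-Hochberg adjustment over 13125 genes. EBSeq, named in the methods, needs counts and was not used. Shares of family sums were compared by exact permutation test. The script was tested on simulated data. The genes named are the 10 genes, the listed related genes and markers, the 5 profiles nearest to *Col10a1*, and genes overlapping the 10 that have a value or share exon bases. The 10 genes and all lists were chosen with earlier results of these data known. The 15 alternatives changed the pseudocount, filter or scaling, dropped the variance trend, used robust eBayes, added the replicate block or left out a sample. Counts of genes called were also taken at an adjusted p of 0.01.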

Additional observations from a re-analysis of the deposited data

How the results depend on the processing

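Of 148 alternative values of the 10 genes, 135 kept their sign and their side of the threshold, 4 (*Runx2* and *Runx3*) passed it newly, 6 (*Dlx6*) no longer passed and 3 turned sign, all of them *Mef2c*: -0.048 with median of ratios scaling, and 2 of its values without 1 sample, which ranged from -0.21 to 0.31. Leaving out each sample in turn gave 4 to 5 of the 10 genes called, 22 to 26 of the related genes and 4603 to 5550 of all genes, beside 5, 26 and 5949. Under an adjusted p of 0.01, 3718 of all genes were called. The median of all genes tested was 0.16 as deposited, 0.093 with quantile normalization, 0.028 with median of ratios scaling and 0.25 without the 20 highest genes. Same-numbered samples shared only a number (correlations of their deviations of -0.0088, -0.0169 and -0.0223, with 0 of 6 samples closest to their own number), and the fit with the replicate block called 5 of the 10 genes, 26 related genes and 5430 of all genes. Levels near 0 in *Sp7*, *Panx3* and *Ihh* limit what those genes show.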
